A study of Homo sapiens with 6 samples.

Results

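CXCL12 and its receptors CXCR4 and ACKR3 were followed in Kelly cells after knockdown of METTL3. The members were the rows named ACKR3, CXCR4 and CXCL12 in the count tables, 3 of 19923 genes. ACKR3 was picked because it had one of the largest rises here: it was chosen by its log2 fold change in this same comparison, so that rise is described with no test. CXCR4 and CXCL12 were added as the other receptor and the ligand, not for their own change. Kelly cells, a human neuroblastoma line in long use, are MYCN-amplified and wild type (WT) by their labels. The cells received a control siRNA (siControl, 3 libraries) or an siRNA against METTL3 (siMETTL3, 3 libraries), and were collected at 72 hours. The labels give 20 μM as the siRNA concentration, and nothing in the tables shows whether this was the final concentration on the cells. All libraries come from 1 cell line and 1 siRNA condition, and nothing states whether the replicates were separate cultures, so p-values measure the spread between these libraries, which may be technical. Poly(A) RNA was sequenced, and the values are counts of reads per gene.

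CXCL12 (also called SDF-1) is a secreted chemokine. CXCR4 is a G protein-coupled receptor that answers CXCL12 through inhibitory G proteins and directs cell migration. ACKR3, formerly CXCR7, is an atypical receptor for the same ligand: it recruits arrestins, does not activate G proteins in the classical way, and takes CXCL12 out of the surroundings by internalising it. In development the ligand and CXCR4 guide migrating neural crest cells, the lineage from which neuroblastoma arises. METTL3 is the enzyme that puts N6-methyladenosine (m6A) on mRNA, and GGACT, written with the DNA letter T, is a frequent form of the sequence it recognises.

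Matches to that sequence in the 3 mRNAs are shown for that reason. Each canonical transcript of the 3 genes (GENCODE release 44, GRCh38, mRNA strand) held 2 copies of GGACT, so all 6 are printed with up to 10 bases on each side, written as DNA from 5′ to 3′ with GGACT in capitals.
ACKR3, chr2:236581810-236581834, plus strand, 3′ UTR: aggcttgcctGGACTtctgtaagat
ACKR3, chr2:236582246-236582270, plus strand, 3′ UTR: aaactgttctGGACTgcaaatctgc
CXCR4, chr2:136115857-136115881, minus strand, coding sequence: tgggctcaggGGACTatgactccat
CXCR4, chr2:136114612-136114636, minus strand, 3′ UTR: tctcgtggtaGGACTgtagaaaagg
CXCL12, chr10:44378602-44378626, minus strand, 3′ UTR: cagccaaaaaGGACTttccgctaga
CXCL12, chr10:44377985-44378009, minus strand, 3′ UTR: actattactgGGACTgtgctcagag
In ACKR3 the copies began 266 and 702 bases after the stop codon. In CXCR4, counted from the last base of the stop codon, one began at -1002 and the other at 243. In CXCL12 they began 17 and 634 bases after it. Per kb of transcript, GGACT occurred 0.993 times in ACKR3, 1.20 times in CXCR4 and 1.04 times in CXCL12, against a median of 0.929 over the 14591 tested genes with a canonical transcript. GGACT was found at least once in 91.3% of those transcripts. The shorter core GGAC occurred 3.97 times per kb in ACKR3, 3.60 times in CXCR4 and 1.56 times in CXCL12, against a median of 3.73. For CXCL12, 7.11% of those transcripts had fewer per kb. A match is a description of the letters: methylation was not measured in these tables.

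The targeted gene was lower in the libraries labelled as its knockdown. METTL3 stood at 53.5, 52.8 and 56.2 CPM in siControl and at 32.99, 31.8 and 34.3 CPM in siMETTL3, where CPM is the usual read count scaled to library size, here with TMM factors. The groups did not overlap, which was so for 25.1% of tested genes in this direction. On the log2 scale the change was -0.71 ± 0.070 (standard error, SE; edgeR quasi-likelihood test, FDR 4.68e-06), which left 61.0% of the control level. The counts cover introns, and the METTL3 span overlaps TOX4. Totals ranged from 15430000 counts (siControl replicate 3) to 21565013. All 13 listed neuroblastoma markers were tested and summed to 7309 to 7964 CPM in siControl and 10552 to 11135 CPM in siMETTL3. MYCN made up the largest part of that sum, with means of 3021 and 4638 CPM. Of the 13, 8 were higher and 2 lower, ISL1 (-1.18 on the log2 scale, edgeR FDR 6.06e-08) and CHGB (-0.56, edgeR FDR 2.42e-05). That is 76.9% called, against 37.8% of all tested genes, of which 18.6% were higher and 19.2% lower.

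ACKR3 (ENSG00000144476.6) lies on chromosome 2 at 236567787 to 236582354 on the plus strand, and its canonical transcript has 2 exons and encodes 362 amino acids. With siControl it had 52, 62 and 24 counts, and with siMETTL3 470, 434 and 487. Every siMETTL3 library was far above every siControl library, a separation that 24.8% of tested genes showed in this direction. In CPM the siControl libraries stood at 2.41, 3.10 and 1.59 and the siMETTL3 libraries at 22.8, 19.9 and 23.7. The mean rose from 2.37 ± 0.756 (SD, n = 3) to 22.2 ± 1.98 (SD, n = 3). The fitted change was 9.13-fold, or 3.19 ± 0.17 (SE) on the log2 scale, and ranked 6 from the top among the 15311 tested genes. A rise of this size was the reason for the choice of the gene. Of all tested genes, 2.74% were called and at least 2-fold higher. In siControl the lowest ACKR3 value was that of replicate 3, the shallowest library, and without it the log2 fold change was 3.01. The span of ACKR3 overlaps no other gene of the table. Because counts cover the whole span, spliced and unspliced ACKR3 RNA cannot be told apart.

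CXCR4 (ENSG00000121966.8), the receptor that signals to migration, was lower. It lies on chromosome 2 at 136114349 to 136118149 on the minus strand, with 2 exons and 352 amino acids in its canonical transcript. It had 46, 34 and 52 counts in siControl and 17, 20 and 24 in siMETTL3. In CPM the siControl libraries stood at 2.13, 1.70 and 3.45 and the siMETTL3 libraries at 0.826, 0.919 and 1.17. The groups did not overlap, as for 25.1% of tested genes in this direction and 49.9% in either, but the siControl values were spread over a 2-fold range, with replicate 3 the highest. Mean CPM fell from 2.43 ± 0.911 to 0.971 ± 0.177 (SD, n = 3 each). On the log2 scale this was -1.29 ± 0.33 (SE; edgeR quasi-likelihood test, FDR 0.00734 over all 15311 tested genes). This left 40.9% of the control level, with a 95% interval of 25.0% to 66.9%. CXCR4 was lower in all 3 siMETTL3 libraries than in any siControl library. Over all tested genes 37.8% were called, 18.6% as higher and 19.2% as lower, so 1 call among 2 genes not chosen for their change is near that background. At least 2-fold falls among the calls were rarer, at 0.607% of tested genes. Without siControl replicate 3, the library that lay farthest from the others, the log2 fold change of CXCR4 was -0.98 (edgeR FDR 0.0224).

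CXCR4 is abundant on leukocytes, and markers of such cells were measured beside it. Of 10 immune markers, MS4A1 and AIF1 were at 0 in every library, and 6 others, PTPRC and CD3E among them, had at most 8 counts in any library. CD4 and CD68 passed the filter on low counts. CD4 had 77, 85 and 50 counts in siControl and 49, 71 and 79 in siMETTL3, in the range of CXCR4 or above it, and was not called (edgeR FDR 0.427). CD68 had 23 to 53 counts and was not called (edgeR FDR 0.318). The summed level of the list was 5.77 to 6.63 CPM in siControl and 4.66 to 5.79 CPM in siMETTL3. In bulk RNA, fewer cells that express a gene and less of its RNA per cell cannot be told apart.

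CXCL12 (ENSG00000107562.18), the ligand, showed no difference between the groups. It lies on chromosome 10 at 44370165 to 44386493 on the minus strand, and its canonical transcript has 3 exons and encodes 89 amino acids. It had 168, 146 and 108 counts in siControl and 170, 154 and 144 in siMETTL3. In CPM these were 7.79, 7.31 and 7.17 against 8.26, 7.07 and 7.01. The values overlapped and varied little in both groups. Means were 7.42 ± 0.326 and 7.45 ± 0.704 CPM (SD, n = 3 each). The log2 fold change was 0.0023 ± 0.14 (SE; edgeR FDR 0.991), and the 95% interval of the fold went from 0.817 to 1.23. The values do not exclude a change of CXCL12 within that interval, which is not a limit of detection.

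**Figure D1:**
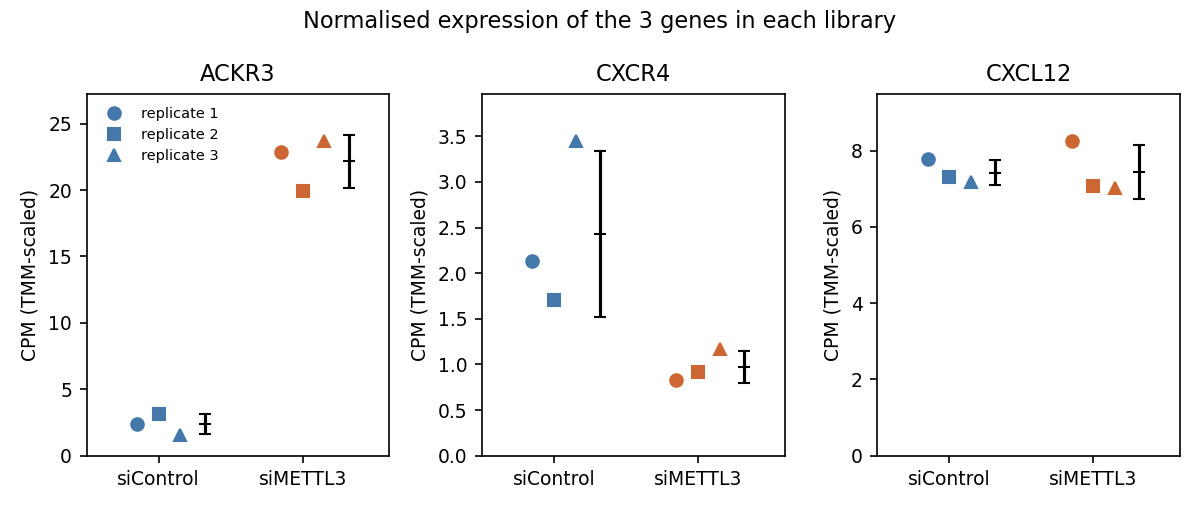
Normalised expression (CPM, linear axes from 0) of ACKR3, CXCR4 and CXCL12 in the 3 siControl and 3 siMETTL3 libraries. Symbols are replicates and black bars are mean ± SD. ACKR3 goes from 1.59 to 3.10 up to 19.9 to 23.7, CXCR4 falls from 1.70 to 3.45 down to 0.826 to 1.17, and CXCL12 overlaps between the groups.

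Levels of different genes were compared relative to length, first per kb of canonical transcript. In siControl the ligand was the most abundant, at 3.85 ± 0.169 CPM per kb (SD, n = 3), above every value of both receptors. CXCR4 followed at 1.46 ± 0.546 and ACKR3 at 1.18 ± 0.375, and these neighbours overlapped across libraries. In siMETTL3 the order was ACKR3 at 10.999 ± 0.982, CXCL12 at 3.86 ± 0.365 and CXCR4 at 0.582 ± 0.106, with no overlap between any of them. The order of the genes therefore changed: ACKR3 went from the level of CXCR4 to above its ligand. The ratio of ACKR3 to CXCR4 per kb was 0.936, 1.51 and 0.382 in the siControl libraries. In the siMETTL3 libraries it was 22.9, 18.0 and 16.8. ACKR3 thus made up 27.6% to 60.2% of the summed level of both receptors in siControl and 94.4% to 95.8% in siMETTL3. Because the counts cover introns, the order depends on the length used: per kb of gene span, siControl held CXCR4 at 0.639, CXCL12 at 0.454 and ACKR3 at 0.163 CPM, and siMETTL3 held ACKR3 at 1.52, CXCL12 at 0.456 and CXCR4 at 0.255 CPM. These ratios contain the change for which ACKR3 was chosen, so no test is given. They are levels of RNA, and receptor protein was not measured.

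**Figure D2:**
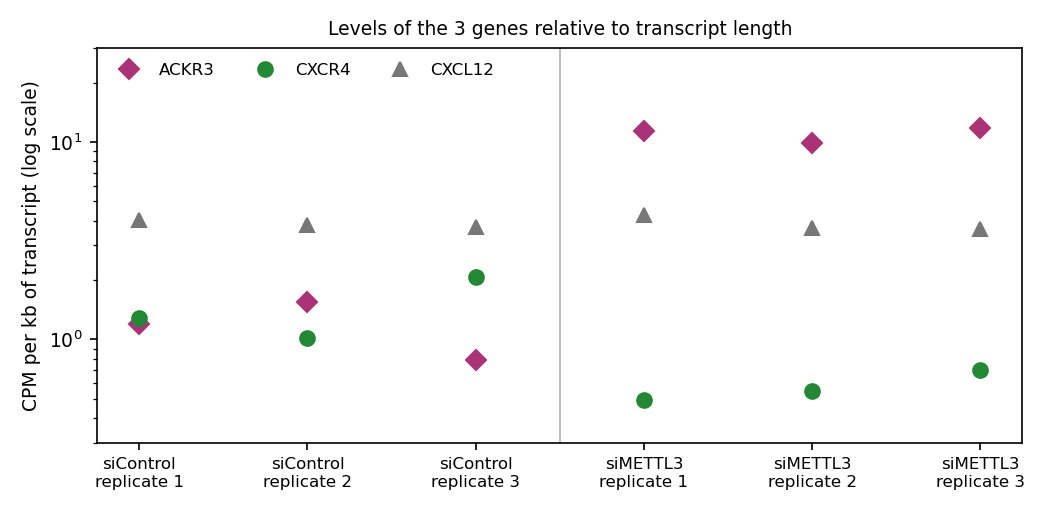
CPM per kb of canonical transcript (log axis) of the 3 genes in each library, with siControl left of the line and siMETTL3 right of it. In siControl ACKR3 and CXCR4 lie near each other below CXCL12; in siMETTL3 ACKR3 lies at 9.89 to 11.8, above CXCL12, and CXCR4 lies below 0.71.

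The promoter of the gene that fell is shown because factors known to bind there were among those measured. RefSeq gives 3 start sites of CXCR4, and the first entry, whose start is the end of the gene's span in the count tables, is printed. The 250 bases before it (RefSeq, GRCh38.p14, chr2:136118150-136118399, minus strand, 5′ to 3′) carry in capitals each match to 4 motifs that were searched on both strands. The motifs were the palindromic NRF1 core, which is the first run of capitals, ACGTG and GCGTG (cores of hypoxia response elements), and TATAAA (the TATA box). The RefSeq table used here holds 2 of the 3 genes, CXCR4 and CXCL12.
CXCR4: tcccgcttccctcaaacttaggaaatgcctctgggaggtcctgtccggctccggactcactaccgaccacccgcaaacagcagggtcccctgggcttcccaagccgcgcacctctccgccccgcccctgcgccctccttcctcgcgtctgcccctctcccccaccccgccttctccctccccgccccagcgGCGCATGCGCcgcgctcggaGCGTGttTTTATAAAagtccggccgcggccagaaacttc
The NRF1 core began 59 bases before the start site, GCGTG 39 bases before it and TATAAA 30 bases before it. A match to TATAAA on the other strand overlapped that one. Before the second start site none of the motifs was found, and before the third only GCGTG, at 2 places. The NRF1 core was found in 1.13% of 27305 RefSeq promoters of this length, GCGTG in 31.9%, ACGTG in 18.7% and TATAAA in 11.1%. In the CXCL12 promoter none of the 4 was found, which says only that these letters are not in that window.

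NRF1, an activator reported at the CXCR4 promoter, was higher in siMETTL3 while CXCR4 was lower. It went from 83.7 ± 7.40 to 100.6 ± 4.36 CPM (log2 fold change 0.26, SE 0.070, edgeR FDR 0.00890), and lost its call without siMETTL3 replicate 1 (edgeR FDR 0.0602). EPAS1, which encodes the hypoxia-inducible factor HIF-2α, rose from 547 ± 25.6 to 704 ± 6.43 CPM (0.36 on the log2 scale, edgeR FDR 0.000227). The other 7 genes listed as reported regulators of the 3 genes were not called, among them HIF1A, YY1, RELA and the repressor HIC1. They include VHL, which is not a transcription factor. With 2 of 9 called, or 22.2%, the list lay under the 37.8% of all tested genes. CXCR4, CXCL12 and ACKR3 are known as genes that hypoxia can induce, so a list of hypoxia-inducible genes was counted beside them. Of its 8 tested members 6 were higher and 0 lower, and the median log2 fold change was 0.49 against -0.0021 over all tested genes. That is 75% called, against 37.8% of all tested genes, of which 18.6% were higher. CA9 and ANKRD37 were not called (edgeR FDR 0.335 and 0.359). ADM was not tested, and VEGFA was not among the genes counted. PFKFB4, a glycolytic regulator, rose from 16.5 ± 4.45 to 51.1 ± 2.22 CPM (1.62 on the log2 scale, edgeR FDR 1.27e-05). NDRG1 rose by 1.46 on the log2 scale, BNIP3 by 0.69 and PDK1 by 0.38. PFKFB4 overlaps UCN2. PFKFB4, NDRG1, BNIP3 and PDK1 moved in the direction of ACKR3 and opposite to CXCR4, while CXCL12 showed no difference. A part of hypoxia signalling in these changes was not tested.

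Among the other ligands and cofactors of the axis, most were low or did not pass the test. Of 13 listed genes 8 were tested, with 1 higher and 2 lower, and their median log2 fold change was -0.17. That is 37.5% called, against 37.8% over all genes. CXCL11, the other chemokine bound by ACKR3, had 4 counts in siControl replicate 2 and 0 in every other library. ADM, whose product adrenomedullin ACKR3 also binds, had 0 to 6 counts, and DPP4, the protease that inactivates CXCL12, had 0 to 2. MIF, an alternative ligand of CXCR4, was abundant at 249 ± 59.9 CPM in siControl and 226 ± 8.36 CPM in siMETTL3 (edgeR FDR 0.569), and its span overlaps AP000350.4. HMGB1, which forms a complex with CXCL12 that acts on CXCR4, fell from 223 ± 10.2 to 163 ± 1.66 CPM. That is -0.45 ± 0.055 on the log2 scale (SE; edgeR FDR 3.56e-05).

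The adrenomedullin receptor parts moved in opposite directions, at low levels. CALCRL, the receptor subunit, had 20, 18 and 18 counts in siControl and 10, 10 and 8 in siMETTL3. Its groups did not overlap, as for 25.1% of tested genes in this direction. Its log2 fold change was -1.15 (edgeR FDR 0.0326), and the call was lost in 9 of the 15 alternatives that gave it a value, with FDR values between 0.0293 and 0.102. RAMP2, its accessory protein, rose from 9.51 ± 1.61 to 12.9 ± 1.85 CPM (0.44 on the log2 scale, edgeR FDR 0.0293), and lost its call without siControl replicate 1 or siMETTL3 replicate 2 (edgeR FDR 0.0726 and 0.170). CD74, the co-receptor for MIF, and SDC4, a proteoglycan that binds CXCL12, were not called (log2 fold changes 0.24 and -0.21, edgeR FDR 0.195 and 0.0768). CXCL14 and PENK stayed below 1 CPM on average and were not called (edgeR FDR 0.494 and 0.378).

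Genes that switch off and move the receptors were all expressed. All 15 listed genes were tested, and 4 higher and 2 lower ones make 40.0% called, near the 37.8% of all tested genes. Their median log2 fold change was 0.094. ARRB1 encodes β-arrestin 1, one of the arrestins recruited by ACKR3 and CXCR4. ARRB1 went up from 121 ± 12.3 to 182 ± 6.13 CPM, by 0.60 ± 0.071 on the log2 scale (SE; edgeR FDR 2.44e-05). ARRB2, which encodes β-arrestin 2, stood at 39.7 CPM in siControl and 42.4 CPM in siMETTL3 and was not called. Of the kinases that phosphorylate activated receptors, GRK5 fell from 208 ± 36.1 to 131 ± 6.97 CPM (-0.66 on the log2 scale, edgeR FDR 0.00116), while GRK2, GRK3, GRK4 and GRK6 were not called. RAB7A, which directs cargo to late endosomes, rose by 0.39 on the log2 scale, and STAM, an endosomal sorting protein, rose by 0.35. USP8 (0.22) and HGS (-0.18) changed less, and lost their calls in 3 and 5 of 16 alternatives, with edgeR FDR values up to 0.123 and 0.154. Their spans overlap USP50 and ARL16.

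**Figure D3:**
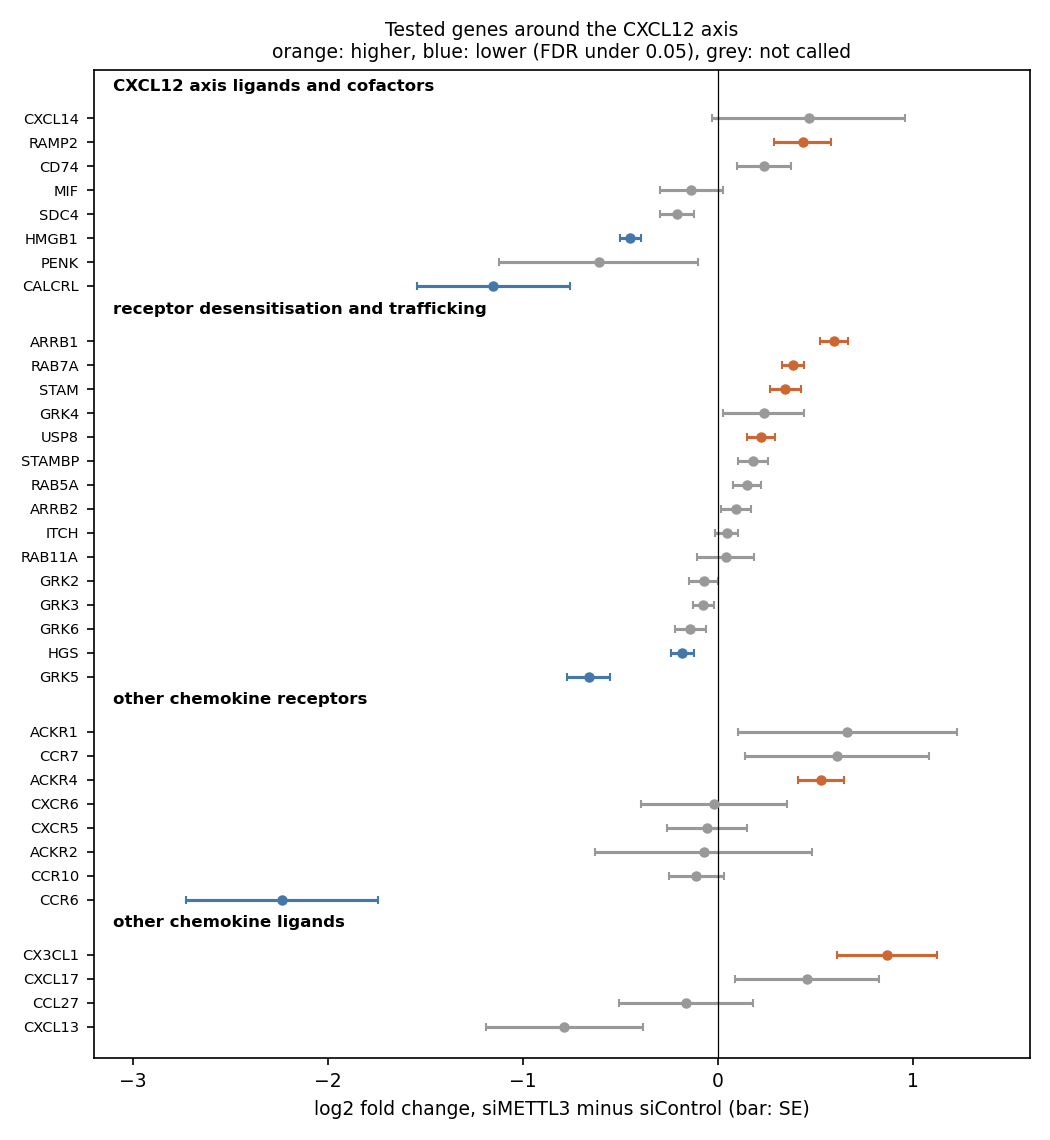
Log2 fold change (siMETTL3 minus siControl, bars are SE) of the tested genes of 4 lists around the CXCL12 axis. Orange and blue mark genes higher and lower at an FDR under 0.05, and grey marks genes not called. ARRB1 and GRK5 lie at 0.60 and -0.66 in the list of desensitisation and trafficking genes, and CCR6 lies at -2.24.

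Downstream of CXCR4, 15 of 40 tested genes of G protein and migration signalling were higher and 4 lower. That is 47.5% called, against 37.8% of all tested genes, with a median log2 fold change of 0.16. The lower calls were 2 and the higher calls 13 when siControl replicate 2, or replicate 1 or 3 of siMETTL3, was left out. RGS16 and RGS4, which speed the inactivation of G proteins, rose from 65.2 ± 3.19 to 108.2 ± 2.36 CPM and from 745 ± 63.6 to 1176 ± 69.7 CPM (log2 fold changes 0.73 and 0.66, edgeR FDR 1.06e-06 and 9.83e-06). RGS2 went the other way and fell by 0.42 on the log2 scale (edgeR FDR 0.00455). ADCY5, an adenylyl cyclase inhibited by the G proteins of CXCR4, rose from 22.8 ± 2.71 to 40.1 ± 0.659 CPM (log2 fold change 0.81), and PIK3R1, a regulatory subunit of PI3-kinase, rose by 0.70 on the log2 scale. PLCB1, a phospholipase, fell from 458 ± 81.7 to 326 ± 16.7 CPM (-0.49 on the log2 scale, edgeR FDR 0.00515). The calls of GNG2 (-0.20) and ADCY1 (-0.19) were each lost in 6 of 17 alternatives, with edgeR FDR values up to 0.152 and 0.104.

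The remaining chemokine system was sparse. Of 21 other chemokine receptors 8 were tested, 1 was higher and 1 lower; of 37 other ligands 4 were tested and 1 was higher. Both lists were at 25.0% called, against 37.8% of all tested genes. Without siControl replicate 1, 2 of these receptors were called higher and 1 of these ligands lower. ACKR4, another atypical receptor, rose from 8.26 ± 0.555 to 12.0 ± 0.446 CPM (0.53 on the log2 scale, edgeR FDR 0.00312), but its span overlaps other genes of the table, so reads can be shared. ACKR1 and ACKR2 were tested and not called. CCR6 had 36, 20 and 14 counts in siControl and 2, 8 and 6 in siMETTL3, and it fell by 2.24 on the log2 scale (SE 0.49, edgeR FDR 0.00283). With a minimum of 10 counts per library or with halved counts, CCR6 did not pass the filter. In the alternatives that tested it the call was kept (FDR up to 0.0205). The ligand CX3CL1 (fractalkine) rose from 2.62 ± 0.767 to 4.87 ± 1.42 CPM (0.87 on the log2 scale, edgeR FDR 0.0158), and lost its call without siControl replicate 2 or siMETTL3 replicate 3 (edgeR FDR 0.0736 and 0.106). Among the ligands, 14 were at 0 in every library, CXCL8 and CXCL10 included.

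ACKR3 is known in vascular endothelium, so endothelial markers were counted beside it. Of 6 listed markers 5 were tested, with 2 higher and 0 lower. That is 40.0% called, near the 37.8% of all tested genes. The summed level of the 6 listed markers was 8.50 to 11.7 CPM in siControl and 17.8 to 21.2 CPM in siMETTL3. ENG had 89, 61 and 37 counts in siControl and 216, 246 and 221 in siMETTL3 (1.73 on the log2 scale, edgeR FDR 5.76e-06), and VWF rose by 0.68 on the log2 scale. The defining marker CDH5 had at most 4 counts in any library, and PECAM1 and KDR were not called (-0.95 and -0.94 on the log2 scale, edgeR FDR 0.143 and 0.131). TEK was not called either (0.18 on the log2 scale, edgeR FDR 0.829). Summed over 8 fibroblast and stromal markers, the level was 133 to 152 CPM in siControl and 127 to 134 CPM in siMETTL3, and COL1A2, DCN and LUM had 8 counts or fewer. PDGFRB made up most of that sum (84.8 and 82.8 CPM), COL1A1 was higher (0.86 on the log2 scale, edgeR FDR 0.0200) and ACTA2 lower (-1.31, edgeR FDR 6.20e-06). With 1 higher and 1 lower among 5 tested, 40.0% of this list was called. The span of ACTA2 overlaps FAS and STAMBPL1, so reads can be shared. The part of such markers in the rise of ACKR3 was not tested.

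The gene nearest to ACKR3 rose as well. IQCA1, which encodes a protein with an IQ motif, lies 60.3 kb before the ACKR3 span on the opposite strand (chromosome 2, 236324147 to 236507535), so both genes are transcribed away from each other. It had 66, 55 and 34 counts in siControl and 165, 182 and 168 in siMETTL3. All siMETTL3 libraries lay above all siControl libraries, as for 24.8% of tested genes in this direction. Its mean went from 2.69 ± 0.405 to 8.19 ± 0.171 CPM, or by 1.59 ± 0.17 on the log2 scale (SE; edgeR FDR 8.08e-06). The next genes on that side, ASB18 and GBX2, had at most 8 counts and were not tested. On the other side COPS8, a signalosome subunit 504 kb away, fell by 0.38 on the log2 scale (edgeR FDR 0.00132), and COL6A3 was not called (edgeR FDR 0.206; 0.0315 without siControl replicate 3). MLPH, 903 kb away, had 2 to 6 counts in siControl and 10 to 21 in siMETTL3 (1.63 on the log2 scale, edgeR FDR 0.0328). Its call was lost in 6 of 15 alternatives, with FDR values up to 0.149. Calls beside ACKR3 stand against 37.8% called over all tested genes.

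**Figure D4:**
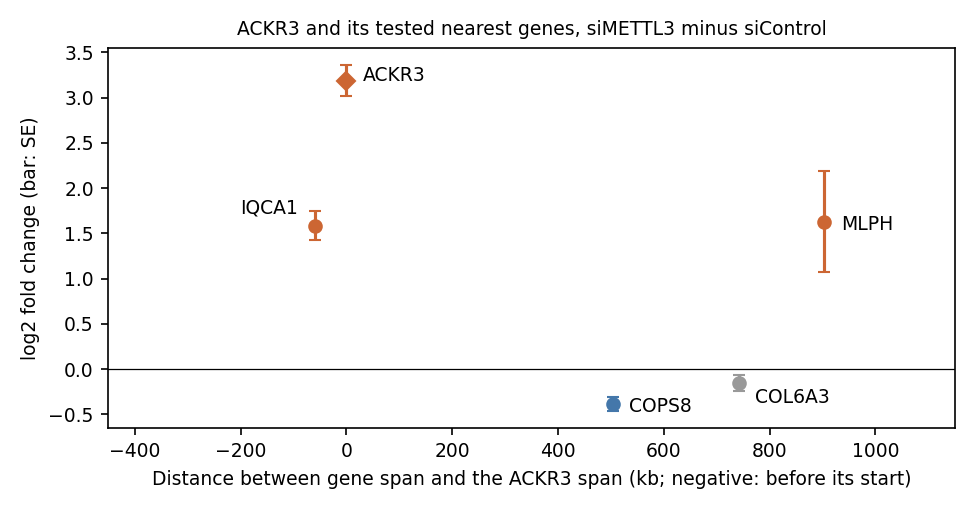
Log2 fold change (siMETTL3 minus siControl, bars are SE) of ACKR3 and of the tested genes among the 3 nearest on each side, against the distance between spans in kb. Orange and blue mark higher and lower values past an FDR of 0.05 (ACKR3 is a diamond, shown as a description), and grey marks a gene not called. ACKR3 at 3.19 and IQCA1 at 1.59 lie high, COPS8 and COL6A3 at -0.38 and -0.15 lie below 0, and MLPH at 1.63 has a wide bar.

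Near CXCR4, THSD7B, 647 kb away, was also lower. It had 3705, 3411 and 2969 counts in siControl and 2314, 2137 and 2177 in siMETTL3 (-0.77 on the log2 scale, edgeR FDR 2.97e-06). MCM6, a subunit of the replicative helicase 238 kb away on the other side, fell by 0.21 (edgeR FDR 0.0128) and lost its call without siControl replicate 2 or siMETTL3 replicate 1 (edgeR FDR 0.0705 and 0.0522). HNMT and SPOPL were not called (edgeR FDR 0.247 and 0.712), and LCT was not tested. Around CXCL12, ZNF32 was lower and RASSF4 higher (log2 fold changes -0.47 and 0.40, edgeR FDR 0.00978 and 0.0144). ZNF32 lost its call without siControl replicate 2 or siMETTL3 replicate 1 (edgeR FDR 0.0540 and 0.0605), and RASSF4 without siControl replicate 2 or siMETTL3 replicate 3 (edgeR FDR 0.0512 and 0.0691). ZNF485 and DEPP1 were not called, and C10orf142 and TMEM72 were not tested. The DEPP1 span lies within that of RASSF4, so these genes can share reads. Over all tested genes 37.8% were called.

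Genes whose values over the 6 libraries ran most like each member were found by the root mean square difference of log2 CPM, each gene centred on its own mean. Because this measure contains the difference between the groups and the spread of the replicates, it is a description. A replicate pattern shared with the member is thus part of how these genes were picked. For ACKR3 the nearest were TKTL1 (0.28), SH3TC2 (0.31), CRH (0.32), CARTPT (0.33) and STC1 (0.34). CARTPT, which encodes the neuropeptide precursor CART, stood at 26.4, 36.0 and 21.6 CPM in siControl and at 177, 175 and 164 CPM in siMETTL3. Like ACKR3, it was highest in replicate 2 and lowest in replicate 3 among the siControl libraries. For CXCR4 the nearest were CNR1 (0.16), KCND2 (0.18), OR8J1 (0.19), CCDC80 (0.21) and CD44 (0.23). CNR1, the cannabinoid receptor 1 gene, stood at 2.04, 1.30 and 2.79 CPM in siControl and at 0.680, 0.827 and 0.779 CPM in siMETTL3. All 5 of these genes had their highest siControl value in replicate 3, as CXCR4 did. For CXCL12 the nearest were CMC2 (0.020), KAT6B (0.025), AC009070.1 (0.026), ZNF761 (0.030) and CC2D1B (0.031), all with log2 fold changes between -0.041 and 0.053. The spans of CMC2 and AC009070.1 overlap each other, so these genes can share reads, and ZNF761 overlaps AC022137.3.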

How the data were processed

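Raw read counts per gene, deposited by the authors as 1 table per library, were made with featureCounts 1.5.3 and a GENCODE release 33 protein-coding annotation, per the file headers. HISAT2 2.1.0 and Trimmomatic 0.36 are named in the submitters' processing notes. Per the headers the counted feature was the gene span, introns included, reads over several genes were counted for each, no strand option was set, and read pairs were not counted as fragments. Even counts made up 64.4% to 71.9% of counts between 10 and 200, so mates of a pair appear to have been counted separately and the number of independent fragments is below the count. Libraries of one group differed from each other beyond the noise of independent counts (chi-square per degree of freedom 3.11 to 16.9). Mates counted separately raise this measure, so a part of the excess can come from them.

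Genes were filtered with filterByExpr (15311 kept, all 3 members included) and scaled by TMM. edgeR 4.0.16 (R 4.3.3, quasi-likelihood test, robust, no covariate, all 6 libraries) gave log2 fold changes, and FDR is Benjamini-Hochberg over all genes tested, with a threshold of 0.05. SE is the absolute log2 fold change over the square root of F. The 95% intervals use the total degrees of freedom of the fit. A pseudocount of 0.5 entered log2 CPM in the search for like patterns. In simulated data (5 draws, 15194 genes, 200 of them changed 2-fold) 88.8% were recovered, and 6.33% of calls were false. Smaller changes, a larger share of changed genes and mates counted separately were not simulated, so these rates do not cover them.

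Alternatives were RLE, upper quartile and total count scaling, no filter, a minimum of 10 counts per library, limma-voom (limma 3.58.1), DESeq2 1.42.0, no robust option, a replicate block and each library left out; halved counts and genes without overlaps were added after the data were seen. The members and lists were chosen with earlier results of these data known. Named were the 3 members, METTL3, the tested ligands and cofactors, up to 4 called genes in each direction per other pathway list, the 3 nearest genes on each side and the 5 most alike in pattern; other genes were named after their values were seen. One gene that this rule names is not reported here. The canonical transcripts were those of GENCODE release 44, found for 95.3% of tested genes; its gene spans are GRCh38, as are those of the tables.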

Additional observations from a re-analysis of the deposited data

How the results depend on the processing

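In all alternatives run, ACKR3 was higher, while CXCR4 and METTL3 were lower at an FDR under 0.05. Leaving out 1 library at a time, the log2 fold change went from 3.01 to 3.42 for ACKR3, from -1.49 to -0.98 for CXCR4 (edgeR FDR 0.00510 to 0.0363), from -0.74 to -0.69 for METTL3 and from -0.078 to 0.044 for CXCL12. CXCL12 lay so close to 0 that its sign changed without being called: -0.0044 without a filter, -0.0053 with limma-voom and -0.015 on genes without overlaps. With halved counts, the setting that bears on the counting of mates, CXCR4 had a log2 fold change of -1.28 (edgeR FDR 0.00707). On genes without overlaps 1852 were called higher and 1898 lower, since only 9518 were tested. When a library was left out, the higher calls went from 2091 to 3178 and the lower calls from 2119 to 3216. Under total count scaling 53.9% of the calls were higher, against 49.2%. For 59 other named genes, 37 values lost the call when a library was left out and 9 under other settings, and 1 gained it (COL6A3). Outside the genes picked for likeness of pattern, 4 values changed sign without a call. They were those of MIF (from -0.28 to 0.067), SPOPL (from -0.048 to 0.19, and -0.0068 without siMETTL3 replicate 2) and ZNF485 (from -0.18 to 0.028). The genes most like CXCL12 in pattern lay near 0 and also crossed it when a library was left out. Their ranges were -0.087 to 0.016 (CMC2), -0.076 to 0.028 (KAT6B), -0.031 to 0.10 (AC009070.1), -0.11 to 0.020 (ZNF761) and -0.11 to 0.013 (CC2D1B). The replicate numbers did not meet the bar for pairing (every correlation of deviations over 0.1): equal numbers gave 0.036 to 0.054 and unequal numbers -0.052 to 0.019, so each library correlated best with its own number, which is a hint from the data and not from the design. With the replicate block, CXCR4 had a log2 fold change of -1.28 (edgeR FDR 0.00453), ACKR3 of 3.19, METTL3 of -0.71 and CXCL12 of 0.0043, and 6166 genes were called. Depth limits the values of CXCR4, with 17 to 52 counts per library, and of ACKR3 in siControl, with 24 to 62.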
